A study of Homo sapiens with 8 samples.

Results

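LIN28B, the let-7 microRNAs and the IGF2BP proteins form a circuit of RNA-binding proteins and their targets, and 10 of its genes are described here: LIN28A, LIN28B, IGF2BP1, IGF2BP2, IGF2BP3, HMGA1, HMGA2, DICER1, TRIM71 and ARID3B. They were found by symbol among the 58787 genes of the deposited count table. All 10 were found, 8 passed the filter on low counts, and LIN28A and HMGA2 had 0 counts in every library. The study asks how blocking the RNA helicase eIF4A changes MYCN-driven neuroblastoma. Polyadenylated RNA was sequenced from IMR32, an established human neuroblastoma line with amplified MYCN, after 6 h with CR31B at its IC50 or with the vehicle, 0.1% DMSO. CR31B is a rocaglate, a compound that clamps eIF4A onto RNA. Each group had 4 libraries of 43687828 to 64715535 counts, and both groups share the one cell line and its MYCN amplification. Replicate 1 of each group was sequenced paired-end and replicates 2 to 4 single-end, per the labels. No label says that replicates came from separate cultures, so p-values measure the spread between these samples, which may be technical.

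LIN28 proteins bind the precursors of let-7 microRNAs and block their maturation, in part by recruiting enzymes that add a uridine tail. Mature let-7 pairs with matches to its seed in the 3′ untranslated region (3′ UTR) of messenger RNAs and lowers their output, and LIN28B, the IGF2BP genes, HMGA2 and TRIM71 are textbook targets. LIN28B is an oncogene in high-risk neuroblastoma, where it was linked to low let-7 and high MYCN. IGF2BP proteins bind and stabilise messenger RNAs, many of them marked by N6-methyladenosine.

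The mature let-7 sequences are shown because 1 seed joins the family to most of these genes. All 9 mature names found in the RefSeq table (GRCh38.p14) carry the same bases 2 to 8, in capitals below, and differ only outside them. The members let-7a, let-7g and miR-98 are printed 5′ to 3′.
hsa-let-7a-5p: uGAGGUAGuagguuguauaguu
hsa-let-7g-5p: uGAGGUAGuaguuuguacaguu
hsa-miR-98-5p: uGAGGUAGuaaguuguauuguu

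The DNA letters opposite the seed are CTACCTC, and a following A makes an 8-base match. The motif was searched on the sense strand of the longest 3′ UTR of each coding gene in GENCODE release 29 (GRCh38). TRIM71 held 6 matches, 4 of them of 8 bases. LIN28B held 4, of which 2 had 8 bases, and IGF2BP1 held 4, of which 3 had 8 bases. IGF2BP2, IGF2BP3 and LIN28A held 1 match of 8 bases each, and HMGA1 and ARID3B 1 match of 7 bases each. DICER1 had 0 CTACCTC in its 3′ UTR and 4 in its coding sequence. For HMGA2 the longest 3′ UTR belongs to a transcript without the last exon of the principal one and had 0 matches, while the principal transcript had 4. A further 7-base match, TACCTCA with no C before it, was counted apart. ARID3B held 4 of these, DICER1 and TRIM71 2 each, and LIN28B, IGF2BP1 and IGF2BP2 1 each. LIN28A, IGF2BP3 and HMGA1 held 0, and HMGA2 0 in the longest 3′ UTR and 3 in the principal transcript. Shares with at least as many CTACCTC matches were taken among 3′ UTRs of similar length (the shorter at least 0.8 times the longer). The share was 0.119% for TRIM71, 0.226% for LIN28B and 0.506% for IGF2BP1. It was 11.0% for IGF2BP2, 12.0% for IGF2BP3, 8.25% for HMGA1 and 12.3% for ARID3B. Each share counts the member itself, and for TRIM71, among 844 such 3′ UTRs, it is TRIM71 alone. The genes were chosen partly as known let-7 targets, so their matches are a description, and a match is not a measured site.

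These matches from the IGF2BP genes, LIN28B and TRIM71 are shown with the 14 bases before them, 5′ to 3′ on the strand of the messenger RNA, with the bases opposite the seed and the A after them in capitals. They lie at chr17:49051062-49051083, chr17:49053699-49053720 and chr17:49054353-49054374 (IGF2BP1, plus strand), chr3:185644220-185644241 (IGF2BP2, minus), chr7:23311795-23311816 (IGF2BP3, minus), chr6:105078813-105078834 (LIN28B, plus) and chr3:32891969-32891990 (TRIM71, plus), all in GRCh38 and all in 3′ UTR exons.
IGF2BP1 first match: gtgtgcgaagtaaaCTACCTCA
IGF2BP1 second match: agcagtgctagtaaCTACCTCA
IGF2BP1 next match: tataaatggattaaCTACCTCA
IGF2BP2: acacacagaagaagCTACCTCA
IGF2BP3: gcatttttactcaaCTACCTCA
LIN28B first match: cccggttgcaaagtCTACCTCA
TRIM71 first match: acattgcttaagtcCTACCTCA

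**Figure D1:**
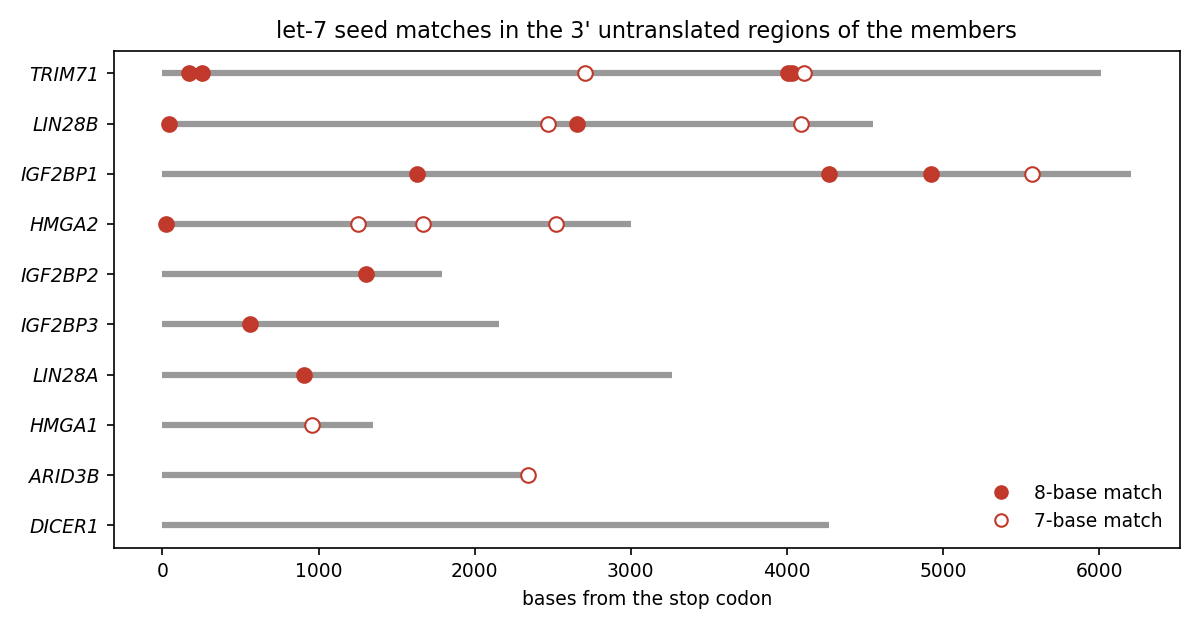
Positions of let-7 seed matches (CTACCTC only) along the 3′ UTR of each gene, in bases from the stop codon (x axis). The longest 3′ UTR is drawn (HMGA2: principal transcript). Grey bars are the 3′ UTR, filled circles 8-base matches and open circles 7-base matches; TRIM71 holds 6, LIN28B, IGF2BP1 and HMGA2 hold 4 each, and DICER1 holds 0.

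The replicate 1 libraries stood apart from the others of their label, so results are given with and without them. The mean chi-square per gene between the library labelled CR31B replicate 1 and the 3 single-end libraries was 9.55 to 17.3 for those labelled DMSO and 96.1 to 146 for those labelled CR31B (1 is expected of repeat draws from 1 library). For the library labelled DMSO replicate 1 it was 8.39 to 21.3 against the single-end CR31B libraries and 91.8 to 111 against the DMSO ones. Each replicate 1 library was thus closer to the other label, and whether the 2 labels were exchanged was not tested. If they were, every value with 8 libraries or from pair 1 would mean something else. In 7 of the 8 members tested, pairs 2 to 4 (CR31B against DMSO of the same number) all had 1 sign and pair 1 had the opposite sign, a pattern found in 64.6% of all tested genes. The labels were kept as given, the library labelled CR31B replicate 1 is called so throughout. With all 8 libraries and sequencing layout as a covariate, 0 of 8 members passed the test, which called 0% of 16518 genes (edgeR quasi-likelihood test, Benjamini-Hochberg adjusted p under 0.05). The members' adjusted p ranged from 0.707 to 0.977 there, and 0 had an unadjusted p under 0.05, against 1.24% of all genes. DESeq2 and limma voom also called 0 members. In the 6 single-end libraries 5 of 8 members passed, 3 of them higher and 2 lower with CR31B, against 41.3% of 16696 genes called, 23.8% higher and 17.6% lower. The members' median log2 fold change was 0.096 and that of all tested genes was -0.007. In what follows, "rose" and "fell" refer to the single-end libraries only, values are CPM (a gene's counts relative to its library's total) after TMM normalisation, and each error of a fold change is its standard error.

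**Figure D2:**
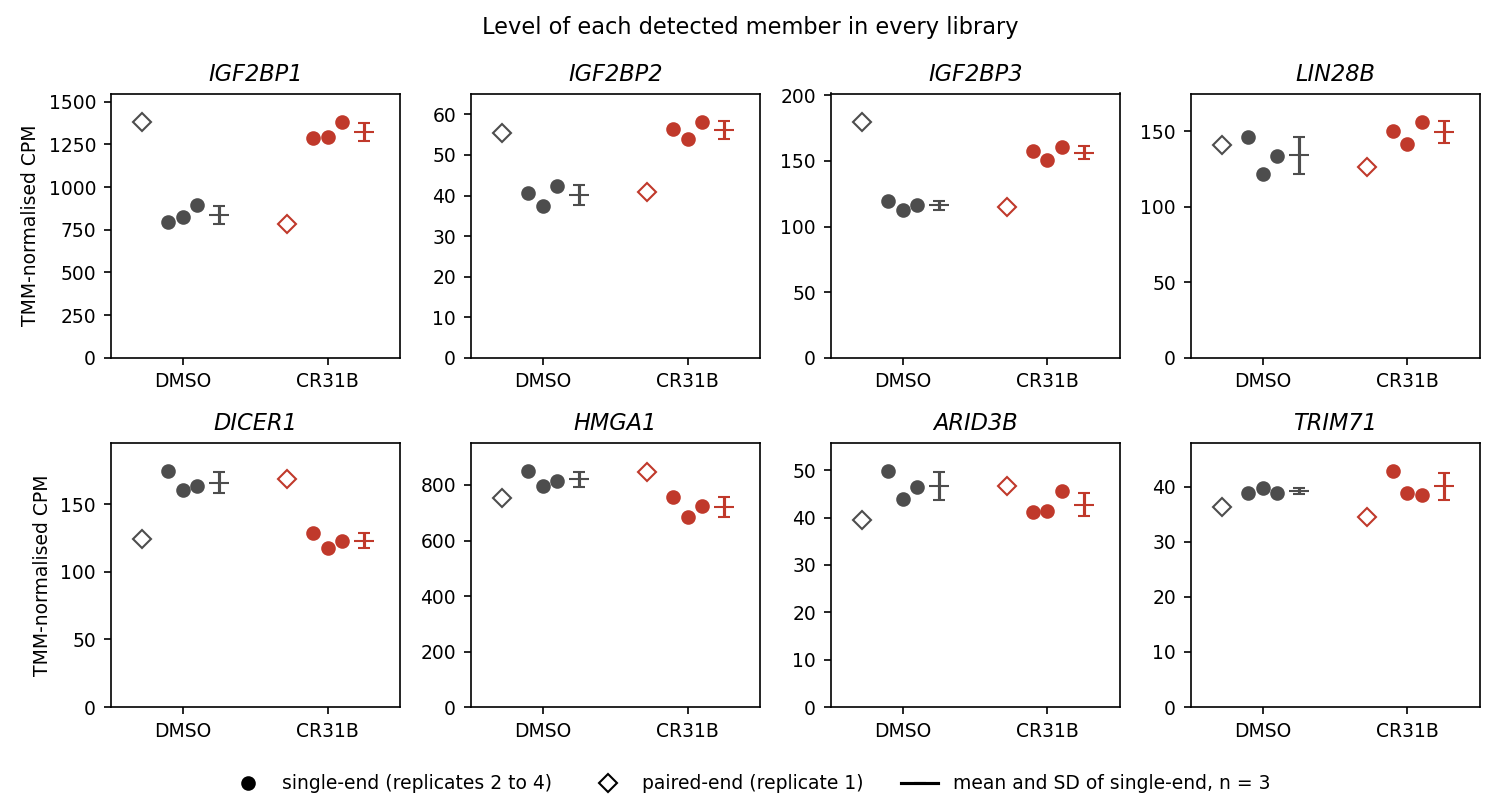
TMM-normalised CPM (y axis, from 0) of the 8 detected members in every library, by label (x axis). Circles are single-end libraries (replicates 2 to 4), open diamonds the paired-end replicate 1, and bars the mean and SD of the 3 single-end libraries; the IGF2BP diamonds lie near the circles of the other label.

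The LIN28 proteins came first, as the inhibitors of let-7 maturation. LIN28B (ENSG00000187772, chr6:104936616-105083332, plus strand) was the LIN28 gene detected in IMR32. Its level was 150, 142 and 156 CPM in CR31B replicates 2 to 4 and 146, 122 and 134 CPM in DMSO replicates 2 to 4. The libraries labelled replicate 1 held 127 CPM for CR31B and 141 CPM for DMSO. The single-end groups overlapped, because DMSO replicate 2 lay above CR31B replicate 3. Its log2 fold change was 0.16 ± 0.070 (adjusted p = 0.0940, edgeR quasi-likelihood test). With the replicate number as a block, which pairs these libraries, the same difference had an adjusted p of 0.0141, so that 6 of 8 members passed where 51.1% of all genes did. With offsets for GC content and transcript length its sign turned, to -0.038 (adjusted p = 0.711) and, with the block as well, to -0.035 (adjusted p = 0.526). Without CR31B replicate 3 it was 0.20 (adjusted p = 0.0486) and without DMSO replicate 2 it was 0.23 (adjusted p = 0.0273), and leaving out DMSO replicate 3 gave 0.088 (adjusted p = 0.329). A direction for LIN28B therefore depended on these settings.

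LIN28A (ENSG00000131914, chr1:26410778-26429722, plus strand), the paralog known from embryonic stem cells, had 0 counts in all 8 libraries. A count of 0 allows up to 3 counts, which is 0.0464 to 0.0687 CPM at these depths, counting error only. LIN28B is thus the one LIN28 gene for which these libraries hold a level.

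IGF2BP1, IGF2BP2 and IGF2BP3 all rose with CR31B, and in each the 3 CR31B single-end libraries lay above the 3 DMSO ones. Groups of 3 that do not overlap were found for 5 of 8 members and for 52.1% of all tested genes. IGF2BP1 (ENSG00000159217, chr17:48997412-49055650, plus strand), a gene of the 17q arm that is often gained in neuroblastoma, had 1286, 1295 and 1382 CPM in CR31B replicates 2 to 4. In DMSO replicates 2 to 4 it had 794, 823 and 895 CPM. The single-end means were 1321 ± 53.2 and 838 ± 51.9 CPM (SD, n = 3 each), a difference of 57.8% and a log2 fold change of 0.66 ± 0.061 (adjusted p = 1.85e-05, edgeR). The library labelled CR31B replicate 1 had 786 CPM, below all 3 single-end DMSO libraries, and that labelled DMSO replicate 1 had 1382 CPM, in the range of the single-end CR31B libraries.

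IGF2BP2 (ENSG00000073792, chr3:185643739-185825056, minus strand), the family member known for a role in metabolism, had 56.3, 53.9 and 58.2 CPM in CR31B replicates 2 to 4 and 40.7, 37.3 and 42.3 CPM in DMSO replicates 2 to 4. Its log2 fold change was 0.49 ± 0.061 (adjusted p = 0.000140, edgeR). Replicate 1 held 40.8 CPM in the library labelled CR31B and 55.3 CPM in that labelled DMSO, each within the single-end range of the other label.

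IGF2BP3 (ENSG00000136231, chr7:23310209-23470467, minus strand), an oncofetal member of the family, had 158, 151 and 160 CPM in CR31B replicates 2 to 4 against 120, 113 and 116 CPM in DMSO. Its log2 fold change was 0.43 ± 0.049 (adjusted p = 7.10e-05, edgeR). The library labelled DMSO replicate 1 held its highest level, 180 CPM, and that labelled CR31B replicate 1 held 115 CPM. Of its exonic bases 17.9% are shared with MALSU1 on the opposite strand. The word "reverse" in the name of the deposited table may refer to strand, but no source states the setting, and without strand the reads there cannot be told apart.

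Length here and below is that of all annotated exons of a gene, merged. Set per that length, IGF2BP1 was the most abundant of the 3 and IGF2BP2 the least in each of the 8 libraries. Summed over the 3 genes, the level was 175 ± 6.61 CPM per kb of exon with CR31B and 114 ± 5.93 with DMSO (SD, n = 3 single-end libraries each). IGF2BP1 made up 82.8% ± 0.405 of that sum with CR31B and 80.6% ± 1.05 with DMSO. IGF2BP2 made up 6.76% ± 0.144 and 7.43% ± 0.376, and IGF2BP3 10.5% ± 0.267 and 12.0% ± 0.757. The differences in these shares were not tested. For IGF2BP3 the merged exons span 8.51 kb. Its transcript with the longest 3′ UTR has 357, 1740 and 2153 bases of 5′ UTR, coding sequence and 3′ UTR. Shares by transcript length were not computed and could differ.

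HMGA1 and HMGA2 encode AT-hook proteins that bend and open chromatin. HMGA1 (ENSG00000137309, chr6:34236873-34246231, plus strand) had 758, 685 and 723 CPM in CR31B replicates 2 to 4 and 850, 796 and 816 CPM in DMSO replicates 2 to 4. The CR31B libraries lay below, by 12.1% in the mean, with a log2 fold change of -0.18 ± 0.056 (adjusted p = 0.0236, edgeR). With the replicate block the adjusted p was 0.00140. The call was lost with GC and length offsets (-0.10, adjusted p = 0.193) but not with those offsets and the block together (-0.10, adjusted p = 0.0292). It was lost also without CR31B replicate 3 (-0.15, 0.0597), CR31B replicate 4 (-0.18, 0.0660), DMSO replicate 2 (-0.16, 0.0818), DMSO replicate 4 (-0.18, 0.0709), or both libraries of replicate 2 (-0.19, 0.0518) or of replicate 4 (-0.19, 0.155), each with its adjusted p. Replicate 1 ran the other way, at 848 CPM under the label CR31B and 752 CPM under the label DMSO. HMGA1 has processed pseudogenes, so its count is uncertain. The 8 pseudogenes in the table summed to at most 0.214% of its counts in a library. HMGA2 (ENSG00000149948, chr12:65824131-65966295, plus strand), a textbook let-7 target, had 0 counts in all 8 libraries, with the same upper limit as LIN28A.

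DICER1 (ENSG00000100697, chr14:95086228-95158010, minus strand) encodes the nuclease that cuts let-7 and other precursors to their mature length. Its level was 129, 118 and 123 CPM in CR31B replicates 2 to 4 and 175, 160 and 163 CPM in DMSO replicates 2 to 4. It fell by 25.9% in the single-end means, with a log2 fold change of -0.43 ± 0.055 (adjusted p = 0.000147, edgeR). With GC and length offsets the fold change was -0.69 (adjusted p = 2.08e-05). The library labelled CR31B replicate 1 had 169 CPM and that labelled DMSO replicate 1 had 124 CPM, each in the single-end range of the other label. Set per length, IGF2BP1 was 14.5 ± 0.917 times DICER1 with CR31B and 6.82 ± 0.634 times with DMSO (SD, n = 3 single-end libraries each).

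TRIM71 and ARID3B did not pass. TRIM71 (ENSG00000206557, chr3:32818018-32897826, plus strand), the human LIN41, encodes an RNA-binding repressor of early development. It had 42.9, 38.8 and 38.6 CPM in CR31B replicates 2 to 4 and 38.8, 39.9 and 38.9 CPM in DMSO replicates 2 to 4, so the groups overlapped. Its log2 fold change was 0.03 ± 0.059 (adjusted p = 0.684, edgeR), and its sign turned with GC offsets and with scaling by total counts or upper quartile. Replicate 1 held 34.6 CPM in the library labelled CR31B and 36.3 CPM in that labelled DMSO, both below the single-end libraries. ARID3B (ENSG00000179361, chr15:74541177-74598131, plus strand), an AT-rich DNA-binding protein, had 41.2, 41.4 and 45.6 CPM with CR31B and 49.8, 43.8 and 46.5 CPM with DMSO in replicates 2 to 4. The log2 fold change was -0.13 ± 0.066 (adjusted p = 0.149, edgeR). Under upper quartile scaling it was -0.22 (adjusted p = 0.0126) and under total counts -0.21 (adjusted p = 0.0182), where the median of all genes was -0.10 and -0.085.

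**Figure D3:**
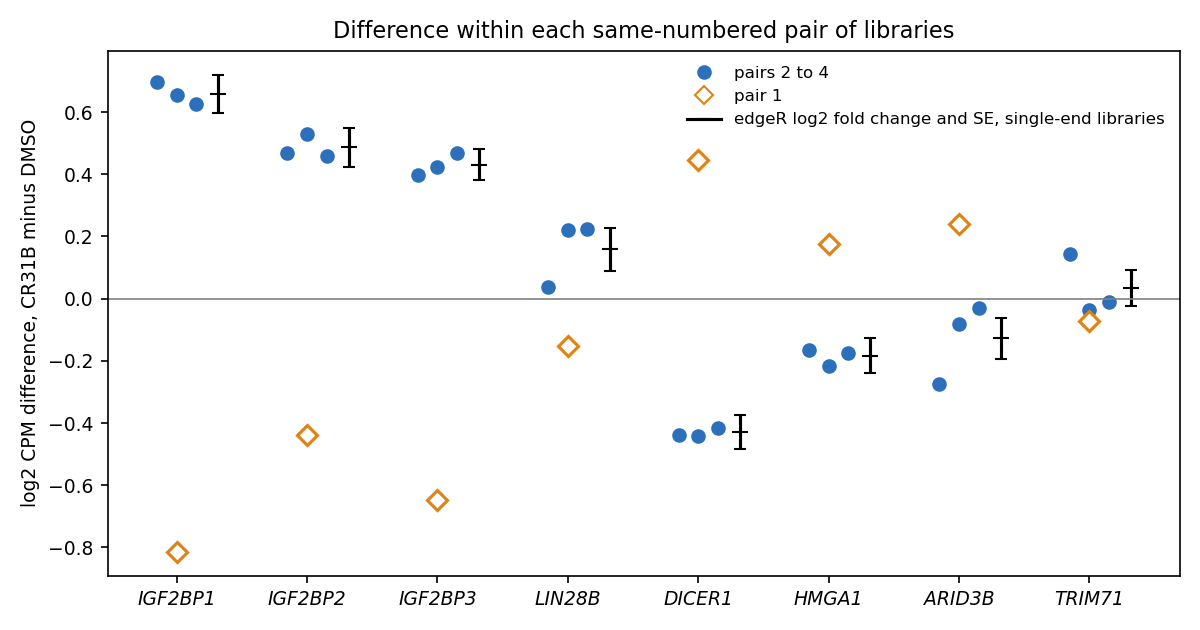
Difference in log2 CPM (prior count 1), CR31B minus DMSO, within each same-numbered pair of libraries (y axis) for each member (x axis). Blue circles are pairs 2 to 4, open orange diamonds pair 1, and black bars the edgeR log2 fold change and standard error of the single-end libraries; IGF2BP1 lies at 0.63 to 0.70 in pairs 2 to 4 and at -0.81 in pair 1.

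Pair 1 was compared with pairs 2 to 4 by the interaction of treatment and layout, with the spread taken from the single-end libraries and 1 paired-end library a group. The interaction passed for 6 of 8 members, against 42.5% of all tested genes. In IGF2BP1 the pairs differed by 0.70, 0.65 and 0.63 on the log2 scale in pairs 2 to 4 and by -0.81 in pair 1 (interaction -1.47 ± 0.12, adjusted p = 9.45e-06, edgeR). IGF2BP3 differed by 0.40, 0.42 and 0.47 and, in pair 1, by -0.65 (interaction -1.08, adjusted p = 1.71e-05). For DICER1 these were -0.44, -0.44 and -0.42, and 0.45 in pair 1 (interaction 0.88, adjusted p = 0.000132). IGF2BP2, HMGA1 and ARID3B also passed, and LIN28B (-0.31, adjusted p = 0.100) and TRIM71 (-0.10, adjusted p = 0.509) did not. With the replicate block, LIN28B passed as well, so that 7 of 8 did, against 51.9% of all genes. With all 8 libraries, the groups of 4 overlapped in every one of the 8 members, where 0.66% of all genes had groups that did not overlap. When the library labelled CR31B replicate 1 was left out, 5 members passed beside 41.6% of all genes, and without that labelled DMSO replicate 1 also 5, beside 41.1%.

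The order of levels was read per length of merged exons. By transcript length, which was not computed, IGF2BP3 could stand elsewhere. In the single-end DMSO libraries the order by merged exons was HMGA1 (353 CPM per kb of exon), IGF2BP1 (91.9), LIN28B (22.3), IGF2BP3 (13.6), DICER1 (13.5), IGF2BP2 (8.47), ARID3B (7.52) and TRIM71 (4.51). The ranges of IGF2BP3 and DICER1 overlapped, as did those of IGF2BP2 and ARID3B. In the single-end CR31B libraries no neighbouring ranges overlapped, and IGF2BP2 (11.9 CPM per kb) stood above DICER1 (9.60 to 10.5). Over all 8 libraries LIN28B, IGF2BP3, DICER1, IGF2BP2 and ARID3B formed a chain of overlapping ranges, while HMGA1 and IGF2BP1 stayed above and TRIM71 below.

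**Figure D4:**
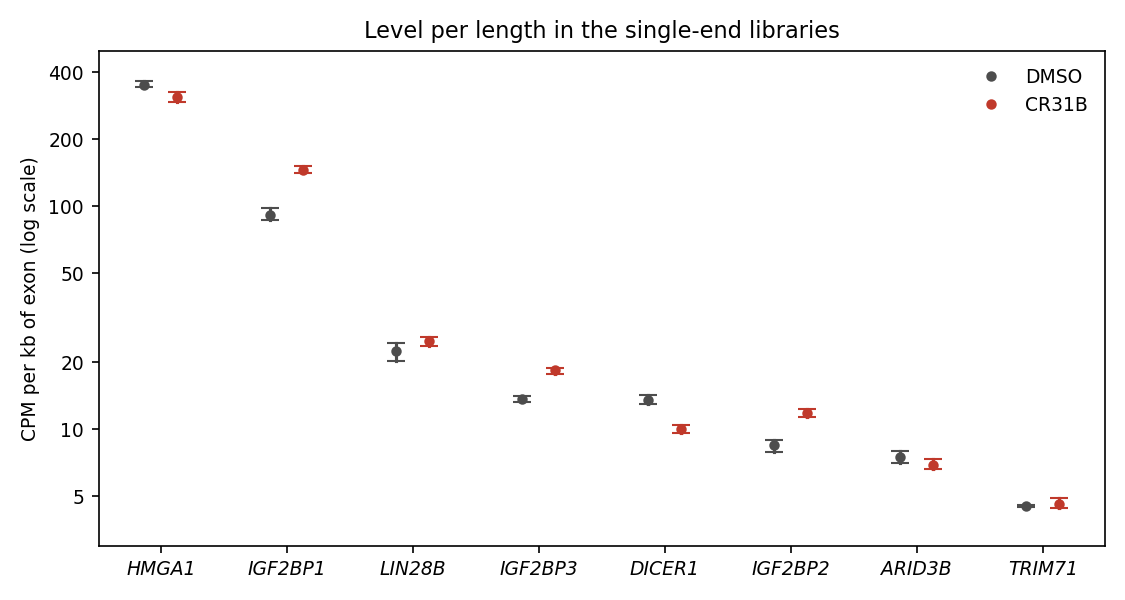
Level in CPM per kb of merged annotated exons (y axis, log scale) of the 8 detected members (x axis) in the single-end libraries, DMSO in grey and CR31B in red. Points are means and bars the lowest and highest of 3 libraries; HMGA1 (353 with DMSO) and IGF2BP1 (91.9) stand above the others, and IGF2BP2 passes DICER1 with CR31B.

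Genes of the let-7 hairpins were at or near 0 in these libraries. The labels give the molecule as polyadenylated RNA but name a small RNA library kit, so what a 0 at a hairpin gene means is not settled by them. Of 12 hairpin genes 9 had 0 counts in all libraries, the highest count was 11, and 0 passed the filter. Of 19 host transcripts and hairpins 6 were tested and 2 rose (33.3%, beside 41.3% of all genes; 1 without CR31B replicate 3, CR31B replicate 4 or DMSO replicate 4), named after their values were seen: HUWE1, the ubiquitin ligase that hosts miR-98 and a let-7f hairpin, by 0.69 ± 0.062 (adjusted p = 1.54e-05, edgeR), and MIR100HG by 1.61 ± 0.53 (adjusted p = 0.0309) at 1.28 CPM or less. MIRLET7BHG, the noncoding host of let-7a and let-7b hairpins, had 1.68, 1.59 and 1.68 CPM with CR31B and 1.86, 2.38 and 2.32 CPM with DMSO in replicates 2 to 4. Its log2 fold change was -0.41 (adjusted p = 0.0523), and 0.0335 with the replicate block. Mature let-7 was not analysed here.

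Among 28 genes of let-7 processing and decay 11 rose and 5 fell, 57.1% called beside 41.3% of all genes, with a median log2 fold change of 0.066. TUT4, the uridylyltransferase that LIN28 recruits, rose by 0.44 ± 0.052 (adjusted p = 8.29e-05, edgeR), TUT7 by 0.38 ± 0.070 (0.00155) and DIS3L2, the exonuclease that degrades tailed precursors, by 0.56 ± 0.060 (4.67e-05), each with its adjusted p. TUT4 and TUT7 were named after their values were seen. DROSHA and DGCR8, the nuclear microprocessor, rose by 0.23 ± 0.045 (adjusted p = 0.00256) and 0.30 ± 0.049 (0.000817), also named after their values were seen. SYNCRIP, which binds let-7 precursors and also partners IGF2BP1, had the largest rise of the list, 1.02 ± 0.054 (adjusted p = 7.81e-07). It went from 454, 475 and 492 CPM in DMSO replicates 2 to 4 to 948, 945 and 993 CPM in CR31B. The silencing factors TNRC6C and MOV10 rose by 0.56 and 0.58. DDX5 and DDX17, helicases of the microprocessor, fell by 0.73 and 0.23, the nuclease XRN2 by 0.31 and AGO1, a microRNA effector, by 0.26 (adjusted p = 4.17e-05, 0.0111, 0.00647 and 0.00203). XPO5, the exporter of precursors, had a log2 fold change of 0.17 (adjusted p = 0.0584, and 0.0137 with the replicate block). AGO2, named after its values were seen, had -0.17 (adjusted p = 0.0662, and 0.00438 with the replicate block). AGO3 (0.062) and AGO4 (-0.051) did not pass either. With GC and length offsets AGO2, AGO3 and AGO4 passed, at -0.36, -0.24 and -0.21. With GC and length offsets 18 of the 28 were called, beside 39.7% of all genes. Under those offsets TUT4, TUT7 and DROSHA had smaller values (0.26, 0.21 and 0.13), and AGO1 and DDX17 larger ones (-0.45 and -0.37).

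Other let-7 targets moved in both directions and, without offsets, about as often as genes at large. Of 34 tested 9 rose and 5 fell, which is 41.2%, beside 41.3% of all genes, and the median was -0.011. With GC and length offsets 18 of the 34 were called, beside 39.7% of all genes. IRS2, an insulin receptor adaptor, rose by 0.64 ± 0.096 (adjusted p = 0.000440, edgeR), CDK6, a G1 kinase, by 0.57 ± 0.055 (2.31e-05) and the membrane protein LRIG3 by 0.49 ± 0.12 (0.00647). RRM2, a subunit of ribonucleotide reductase, fell by 0.52 ± 0.092 (adjusted p = 0.00120), GNPTAB by 0.37 (0.00150), PBX3, a homeodomain factor, by 0.31 (0.000993) and NR6A1, an orphan nuclear receptor, by 0.28 (0.0474). GC and length offsets lowered CDK6 to 0.31. MYCN, the amplified oncogene, was listed as a let-7 target. Its 3′ UTR held 0 CTACCTC and 2 TACCTCA with no C before it. It had 2637, 2360 and 2908 CPM with CR31B and 2319, 2304 and 2641 CPM with DMSO in replicates 2 to 4. Replicate 1 held 2597 CPM under the label CR31B and 2966 CPM under the label DMSO. The log2 fold change of MYCN was 0.12 ± 0.085 (adjusted p = 0.274, edgeR), and 0.12 with an adjusted p of 0.0243 under the replicate block.

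RNAs known as IGF2BP clients also moved in both directions and, without offsets, about as often as genes at large. Of 11 tested 3 rose and 2 fell, 45.5% called beside 41.3% of all genes (23.8% higher and 17.6% lower). With GC and length offsets 6 of the 11 were called, beside 39.7% of all genes. The imprinted noncoding RNA H19 fell by 0.52 ± 0.13 (adjusted p = 0.00854, edgeR) and E2F1, a cell cycle factor, by 0.43 ± 0.088 (0.00289). MYC and GLI1, which lay under 2 CPM and were named after their values were seen, rose by 1.08 and 2.54. IGF2, for which the family is named, reached at most 0.292 CPM and was not tested.

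Of 11 tested RNA-binding partners of the IGF2BP proteins 6 rose and 2 fell, 72.7% called beside 41.3% of all genes. Their median was 0.28. With GC and length offsets 5 were called, beside 39.7% of all genes. HNRNPU rose by 0.65 ± 0.069 (adjusted p = 4.35e-05, edgeR), HNRNPD by 0.40 ± 0.049 (0.000124) and the helicase DHX9 by 0.34 ± 0.096 (0.0162). YBX1, a cold-shock protein, fell by 0.34 ± 0.068 (adjusted p = 0.00245) and PABPC1, the poly(A)-binding protein, by 0.22 ± 0.056 (0.0104). With those offsets HNRNPU was at 0.36, HNRNPD at 0.21, YBX1 at -0.22 and DHX9 at 0.26 (adjusted p = 0.0571). All of the list genes called in these 5 lists had the opposite sign in pair 1, as had 40.9% of all tested genes, out of the 41.3% called. With all 8 libraries 0 genes of any list passed.

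**Figure D5:**
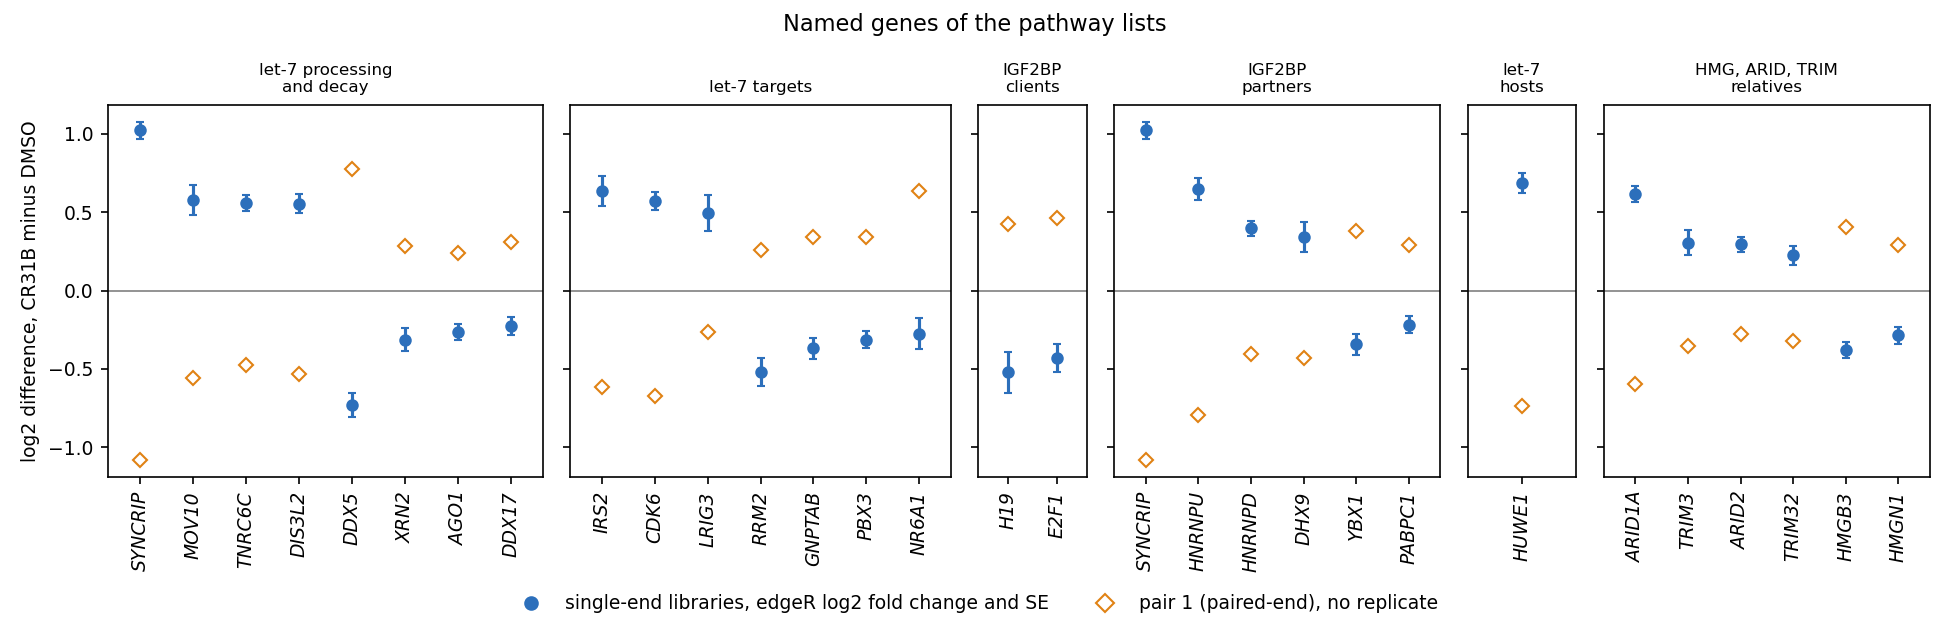
Log2 difference, CR31B minus DMSO (y axis), of the genes named from each list (x axis). Blue circles with bars are the edgeR log2 fold change and standard error of the single-end libraries, and open orange diamonds the log2 CPM difference of pair 1, which has no replicate; SYNCRIP lies at 1.02 in the former.

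The genes whose profile was most like that of IGF2BP1 over the 8 libraries were QTRT2, TSTD2, KPNA4, LAS1L and CARMIL2, with Pearson r of 0.997 to 0.998 on log2 CPM among 10688 genes of at least 5 CPM. QTRT2 had a log2 fold change of 0.92, KPNA4 of 0.76 and LAS1L of 0.28 in the single-end libraries. For LIN28B they were PCBP4 (r = 0.982), SHLD3 (0.961), ABI2 (0.956), RASGRP2 (0.940) and RFFL (0.939), none of which passed the test. These correlations share the same 8 libraries and describe them only.

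Markers of the labelled cell type were present. Of 11 neuroblast markers 10 reached 5 CPM, among them HAND2 and GATA3, with TH below. Their sum was 3303 to 4574 CPM in the libraries labelled CR31B and 3267 to 4396 CPM in those labelled DMSO. These marker ranges include replicate 1 and so do not compare the single-end groups. Of the 11, 9 passed the single-end test, which called 41.3% of all genes. Of 8 mesenchymal markers 2 reached 5 CPM (COL1A1 and TWIST1), with a sum of 156 to 227 CPM with CR31B and 171 to 208 CPM with DMSO and with PRRX1 and POSTN at 0. Immune, epithelial and endothelial markers summed to at most 2.89 CPM in any library and 4 glial markers to at most 8.22 CPM, with GFAP at 0. Because RNA was taken in bulk, fewer expressing cells and less RNA per cell cannot be told apart. The part of these markers in the results was not tested.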

How the data were processed

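RNA of 8 IMR32 libraries was counted per gene by the authors, who deposited raw counts per Ensembl gene without normalisation. The submitters' processing notes list FastQC 0.11.7, STAR 2.7.2b, edgeR 3.36.0, limma 3.50.3 and GRCh38; counter and annotation are not given in the sources used here, and of strand there is only the word "reverse" in the table's name. Per the labels' protocols, 250 ng of RNA, 15 PCR cycles and 75 sequencing cycles were used. Counts without molecular identifiers include PCR duplicates, so limits from depth cover counting error only. The members and lists were chosen with earlier results of these data known.

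The two-sided quasi-likelihood test of edgeR 4.0.16 (R 4.3.3) was run over all genes kept by filterByExpr, with TMM factors, in 3 fits: 8 libraries with layout as covariate, the 6 single-end libraries, and the interaction of treatment and layout. Of 120 list entries 1 had no single gene identifier. Named list genes were, by rule, up to 4 in each direction with the largest called change, at least 5 CPM and 1 sign in pairs 2 to 4. Some genes that the rule names are not reported here by themselves and stay in the counts. Gene positions and UTRs come from GENCODE 29, in which 58515 of the 58787 identifiers were found. Same-numbered single-end libraries deviated together from their group means (r = 0.216 in replicate 2, 0.402 in 3 and 0.166 in 4). The numbers may thus mark pairs, which no label states. The single-end test does not use them, and the replicate block, which does, is given beside it. The lowest mean chi-square per gene between any 2 libraries was 7.32, so each counted as 1 sample. On simulated counts with 200 changed genes, the single-end fit over 16696 genes recovered 94% of changes of 0.5 on the log2 scale. It recovered 100% of changes of 1, with 24 false calls among 218, more than the 0.05 threshold aims for. The changed genes all lay above 5 CPM and no pairing was simulated. They were also far fewer than the 41.3% called in the data, so the fit was not checked in that setting. Alternatives were DESeq2 1.42.0, voom from limma 3.58.1, a replicate block, GC and length offsets, scaling by RLE, by upper quartile or by total counts, no filter or a 1 CPM filter, and leaving out libraries. Other scalings of pair 1 were chosen after seeing the data.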

Additional observations from a re-analysis of the deposited data

Results flagged for a closer look

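In the group labelled CR31B, replicate 1 lay far below the other 3 libraries in IGF2BP1, with a gap of 0.839 of the group's range. In the group labelled DMSO, replicate 1 lay far above the others in IGF2BP3, with a gap of 0.896 of the range. Both are above Dixon's 95% limit for 4 samples, which chance alone would pass in about 0.8 of the 16 groups checked.

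The treatment difference of pair 1 departed from that of pairs 2 to 4 in 6 of 8 members, beside 42.5% of all tested genes. This was the edgeR interaction of treatment and layout, with 1 paired-end library a group. On the log2 scale the departure was -1.47 for IGF2BP1, -0.92 for IGF2BP2 (adjusted p = 0.000198), -1.08 for IGF2BP3, 0.36 for HMGA1 (adjusted p = 0.0253), 0.88 for DICER1 and 0.37 for ARID3B (adjusted p = 0.0454). The interaction of ARID3B no longer passed without CR31B replicate 2 or 3 or DMSO replicate 2 or 4, where its adjusted p reached at most 0.0708. Layout and replicate number cannot be told apart here, since all paired-end libraries are replicate 1.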

How the results depend on the processing

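With all 8 libraries, between 0 and 5 members passed when libraries were left out, 5 of them without CR31B replicate 1, without DMSO replicate 1 or without both, where 41.6%, 41.1% and 41.3% of all genes passed. In the single-end libraries 4 to 5 passed when libraries were left out, beside 23.4% (without replicate 4) to 39.8% of all genes, and the interaction passed for 5 to 6, beside 37.3% to 45.0%. The replicate block gave 0 members with 8 libraries (0% of all genes), 6 in the single-end libraries (51.1%) and 7 for the interaction (51.9%), and the list counts became 18, 17, 7, 9, 3 and 8 for processing, targets, clients, partners, hosts and relatives. Among the members it changed the single-end call of LIN28B only. GC and length offsets left 5 partners called, beside 39.7% of all genes. The other lists then had 18 (processing), 18 (targets), 6 (clients), 3 (hosts) and 6 (relatives) called. Of the let-7 hosts 1 to 2 passed when libraries were left out, 1 without CR31B replicate 3, CR31B replicate 4 or DMSO replicate 4.

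Of 152 member values under single-end alternatives 132 kept direction and side of the threshold, and IGF2BP1, IGF2BP2, IGF2BP3 and DICER1 did so in all of theirs. LIN28B turned to -0.016 (8 libraries) and -0.038 (single-end) with GC and length offsets, and to -0.013 and -0.035 with the replicate block added. TRIM71 turned with 8 libraries to -0.061 (GC offsets), -0.063 (GC offsets and block), -0.00035 (RLE), -0.035 (upper quartile), -0.028 (total counts), -0.0049 (no filter), -0.0047 (1 CPM filter), -0.034 (without CR31B replicate 2) and -0.041 (without replicate 2). Its single-end values turned to -0.10, -0.11, -0.062 and -0.045 under GC offsets, GC offsets with block, upper quartile and total counts, and to -0.015 and -0.024 without CR31B replicate 2 and without replicate 2. Its interaction turned to 0.10 (upper quartile) and 0.067 (total counts). ARID3B with 8 libraries turned to 0.017 without DMSO replicate 2 and 0.043 without replicate 2. Over all left-out libraries TRIM71 ranged from -0.041 to 0.035 (8 libraries) and from -0.024 to 0.062 (single-end), and ARID3B from -0.13 to 0.043. The causes were not tested. Of 24 pair 1 differences under other scalings, 2 changed sign, both of TRIM71. Depth limits LIN28A, HMGA2 and the let-7 hairpins, at or near 0 counts.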

Other observations

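Relatives of HMGA, ARID3 and TRIM71 were measured as a further list. Of 13 tested 4 rose and 2 fell in the single-end libraries (46.2%, beside 41.3% of all genes; edgeR). ARID1A, a subunit of the BAF chromatin remodeller, rose by 0.62 ± 0.049 (adjusted p = 7.01e-06), TRIM3 by 0.31 (0.0121), ARID2 by 0.30 (0.000694) and TRIM32, a ubiquitin ligase of the TRIM-NHL class, by 0.22 (0.0118). HMGB3 and HMGN1, chromatin proteins of the high mobility group, fell by 0.38 (adjusted p = 0.000229) and 0.29 (0.00185). With GC and length offsets ARID2 had 0.073 (adjusted p = 0.263) and HMGN1 -0.44, and with upper quartile scaling TRIM3 (adjusted p = 0.0655) and TRIM32 (0.123) did not pass. All 6 had the opposite sign in pair 1.

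Of 12976 tested coding genes 88.9% held no CTACCTC in their longest 3′ UTR, and their median log2 fold change in the single-end libraries was 0.022. Genes with 1 match (1266) had a median of 0.046 and those with 2 or more (173) of 0.047. Among 3′ UTRs of 2000 bases or more, the median was 0.12 without a match (3822 genes) and 0.075 with 1 or more (993 genes). Only 11 tested genes held 4 or more matches, 3 of them members (TRIM71, IGF2BP1 and LIN28B). Among these 11, IGF2BP1 rose and NR6A1 fell, while SMC1A and HIC2 had -0.032 and -0.0048 and did not pass.

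Rocaglates are known to clamp eIF4A onto purine runs. Purine shares were read in the 5′ UTR of the transcript with the longest 3′ UTR, beside coding genes of any 5′ UTR length. The 5′ UTR of IGF2BP2 (96 bases) was 77.1% purine, a share that 0.763% of genes reach. It held 1 GAGAGA, where 3.18% of 5′ UTRs of similar length hold any. That of LIN28B was 63.1% purine, reached by 6.42% of genes, and held 2, where 9.26% of 5′ UTRs of similar length hold any. IGF2BP1 and IGF2BP3, which rose as IGF2BP2 did, held 0 GAGAGA. A purine share at or above theirs was found in 82.2% and 83.9% of genes. For DICER1, which fell, this was 12.8% of genes, with 0 GAGAGA. TRIM71, with a 5′ UTR of 63 bases, lay at the low end, where 97.4% of genes had a purine share at or above its own. Whether purine share goes with the change in RNA was not tested. RNA levels do not measure translation.

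The letters CACGTG, the E-box bound by MYC proteins, were found in 1 of 2 promoter windows of LIN28B and in the window of IGF2BP3 (250 bases before to 50 after the start, RefSeq), and in 7.26% of 35116 windows of all genes. IGF2BP2, HMGA1, DICER1 and TRIM71 had 0. The promoter set held no window for LIN28A, IGF2BP1, HMGA2 and ARID3B, so these were not examined.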
